A study of Mus musculus with 4 samples.

Results

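The genes described here encode the chaperones of the cytosol and mitochondria, their cochaperones and the heat shock transcription factors. A list of 40 gene symbols was matched by name to the deposited table of 24497 features, and all 40 were found. Hspa1a and Hspa1b, near-identical copies, were summed, which gave 39 features, and 38 of these passed the filter of at least 1 TPM (a length-normalized share of a library's transcripts) in at least 2 of 4 libraries. The feature that did not pass was Hspb1. The series profiled spleen cells of mice with acute myeloid leukaemia driven by the MLL-AF9 fusion: CD45.2+ marrow cells of leukaemic primary mice were passed to secondary recipients given 320 rads, and the groups were formed a week later. The 2 groups received PBS, or 5 mg/kg of CS1, which the labels call an FTO inhibitor (FTO removes methyl groups from RNA), into the peritoneum every second day for 20 days. Spleen cells were then enriched for CD45.2 with beads, and polyA RNA was sequenced. Every library in both groups therefore shares the fusion, the irradiation and the enrichment, and the beads select donor cells without separating leukaemia cells from other CD45.2+ cells. Each group has 2 libraries. The labels name neither the strain, the age nor the number of primary leukaemias. They do not say whether libraries came from different mice either, so the p-values reflect the spread among these 4 libraries, which may be technical. CS1 replicate 2 carries the treatment entry CS2 but is CS1 by its title and description, and it was kept in the CS1 group.

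Chaperones bind proteins that are not yet folded or have lost their fold. HSP70 proteins hold short exposed stretches of a client in a cycle driven by ATP; J-domain proteins deliver clients and start the ATP hydrolysis, and nucleotide exchange factors such as the HSP110 proteins and BAG proteins end the cycle. HSP90 acts later, on kinases, steroid receptors and other nearly folded clients, with a set of cochaperones that load, time and release them, while the ring complex TRiC encloses actin, tubulin and other clients. The factor HSF1 switches on a subset of these genes when misfolded protein accumulates, and the rest are made constantly in growing cells. For this comparison Hspa1a, Hspa1b, Hspb1, Hsph1, Hsp90aa1, Dnajb1, Dnajb4 and Bag3 were taken as stress-inducible and the other 32 genes as constitutive.

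The deposited values summed to between 977973 and 986345 TPM per library. TPM does not keep the number of reads, so depth is unknown. Between 11459 and 11813 features reached 1 TPM per library. Markers of myeloid leukaemia cells were all detected, and 5 of the 9 were higher and 4 lower in CS1, some by a large amount. Elane went from 424 and 427 TPM in PBS to 2490 and 2533 TPM in CS1, and Mpo from 160 and 163 to 805 and 821 TPM. Itgam went from 976 and 988 TPM in PBS to 509 and 504 TPM in CS1, and Ptprc from 583 and 597 to 323 and 315 TPM. Summed T cell markers were at 14.1 and 15.7 TPM in PBS and 8.36 and 8.44 TPM in CS1 (0 of 5 tested higher, 3 lower), and summed B cell markers at 69.6 and 71.9 against 45.0 and 48.0 TPM (0 of 7 higher, 5 lower). Summed NK cell markers stood at 17.8 and 20.3 against 46.1 and 52.4 TPM (2 of 3 tested higher, 1 lower). That rise lay in Nkg7 and Klrk1, whereas Gzma was called lower, and Ncr1, Klrb1c, Prf1 and Eomes had lower means in CS1 and were below 1 TPM in every library. Summed dendritic cell markers were at 233 and 235 against 451 and 456 TPM (6 of 6 higher). Most of that sum was Flt3, at 187 and 190 TPM in PBS and 378 and 376 TPM in CS1. Itgax, at 37.82 and 37.65 against 57.35 and 56.87 TPM, made up most of the rest. Clec9a, Siglech, Zbtb46 and Batf3 were at most 7.96 TPM in any library, and Xcr1 was at most 0.72 TPM and was not tested. Summed plasma cell markers were at 302 and 306 TPM in PBS and 230 and 238 TPM in CS1 (0 of 3 tested higher, 3 lower). Nearly all of that sum was Xbp1, at 295 and 290 TPM in PBS and 228 and 236 TPM in CS1. Jchain went from 8.87 and 9.26 TPM to 0.88 and 1.42 TPM. Summed erythroid markers were at 19.0 and 19.5 TPM in PBS and 42.9 and 36.2 TPM in CS1 (1 of 3 tested higher, 0 lower), with the globin gene Hbb-bs listed at 0.01 in both PBS libraries and at 13.5 and 12.2 TPM in CS1. Platelet markers summed to at most 21.2 TPM and stromal and endothelial markers to at most 51.9 TPM in any library, and the platelet genes Pf4 and Ppbp were listed at 0.01, the lowest value in the table, in all 4 libraries. Most of the platelet sum was Itgb3, at 11.72 and 12.69 TPM in PBS and 11.45 and 11.51 TPM in CS1. Most of the stromal and endothelial sum was Pecam1, at 45.06 and 43.36 against 37.79 and 35.69 TPM. Immediate early genes, which are often raised when tissue is taken apart, summed to 6147 and 6177 TPM in PBS and 8277 and 8299 TPM in CS1, with 13 of 16 higher and 1 lower. The part of these lists in the chaperone results was not tested. In bulk RNA, fewer cells of a type and less RNA per cell cannot be told apart.

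More of the chaperone genes were lower than higher in CS1, and in summed TPM most of the fall lay in the HSP70 and HSP110 genes, which went from 2874 and 2913 TPM in PBS to 1856 and 1885 TPM in CS1. Together the members held 0.746% and 0.752% of the library total in PBS and 0.607% and 0.609% in CS1. Their summed level was 7356 and 7413 TPM in PBS against 5940 and 5954 TPM in CS1. Of the 38 tested features, 22 were called lower and 6 higher at an adjusted p under 0.05 in limma's test, and 10 were not called. Over all 11865 tested features, 31.6% were called lower and 35.3% higher, so the members' share of lower calls (57.9%) stood above the background and their share of higher calls (15.8%) below it; 67.0% of all tested features were called in either direction. The groups did not overlap for 25 members that lay lower in CS1 and 8 that lay higher, beside 39.3% and 45.1% of all tested features, and they overlapped for 5 members. The median log2 fold change, on log2(TPM + 1), was -0.15 over the tested members and 0.04 over all tested features. Most of the lower calls were small: 3 of the 22 reached a change of at least 0.5 on this scale, and 2 of the 6 higher calls did. Among all tested features, 11.9% were called lower and 16.3% higher with a change of that size. The count of higher calls rested on small differences: it was 3 without PBS replicate 1 and 3 without CS1 replicate 1, while the count of lower calls was 21 whichever library was left out.

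**Figure D1:**
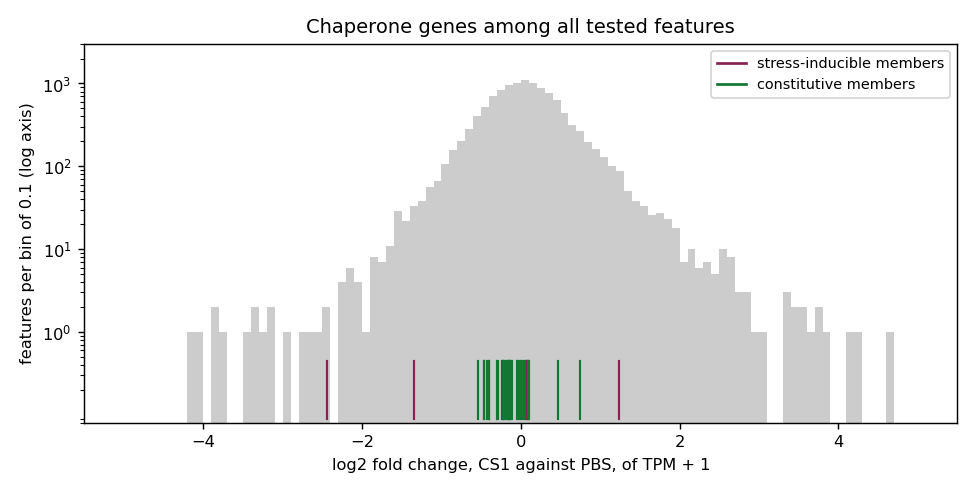
Distribution of log2 fold changes (CS1 against PBS, of TPM + 1, x axis) over the 11865 tested features, as features per bin on a log axis, with 1 tick below for each of the 38 tested chaperone features. Most ticks lie slightly left of 0, and the summed Hspa1a and Hspa1b feature at -2.44, Hsph1 at -1.35 and Dnajb4 at 1.24 stand apart from the rest.

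The stress-inducible members did not move together. Of the 6 tested features, 3 were called lower (Hspa1a and Hspa1b summed, Hsph1 and Bag3), 1 higher (Dnajb4) and 2 were not called (Hsp90aa1 and Dnajb1), with log2 fold changes from -2.44 to 1.24 and a median of -0.08. The 32 constitutive members covered a narrower range, from -0.54 to 0.74, with 19 called lower, 5 higher and 8 not called, and a median of -0.15. Lower calls thus made up 3 of the 6 stress-inducible and 59.4% of the constitutive features, beside 31.6% of all tested features, and higher calls 16.7% and 15.6%, beside 35.3%. The 5 higher calls were 2 without PBS replicate 1 or CS1 replicate 1 and 3 without either of the other libraries, and 2 stress-inducible features were higher without PBS replicate 2. In TPM, the stress-inducible members summed to 722 and 741 in PBS and 454 and 445 in CS1, and the constitutive members to 6634 and 6672 in PBS and 5486 and 5509 in CS1. A change of at least 0.5 on the log2 scale was reached by 5 called members of the 38 tested, 3 lower and 2 higher. Among all tested features 28.2% were called with such a change (11.9% lower and 16.3% higher). At this size the members' shares were thus below the background in both directions. With a wider list of 16 inducible features, which adds genes that HSF1 also raises moderately such as Hspa8, Hspd1 and Ahsa1, 9 of 15 tested were lower and 2 higher, and the median was -0.23.

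**Figure D2:**
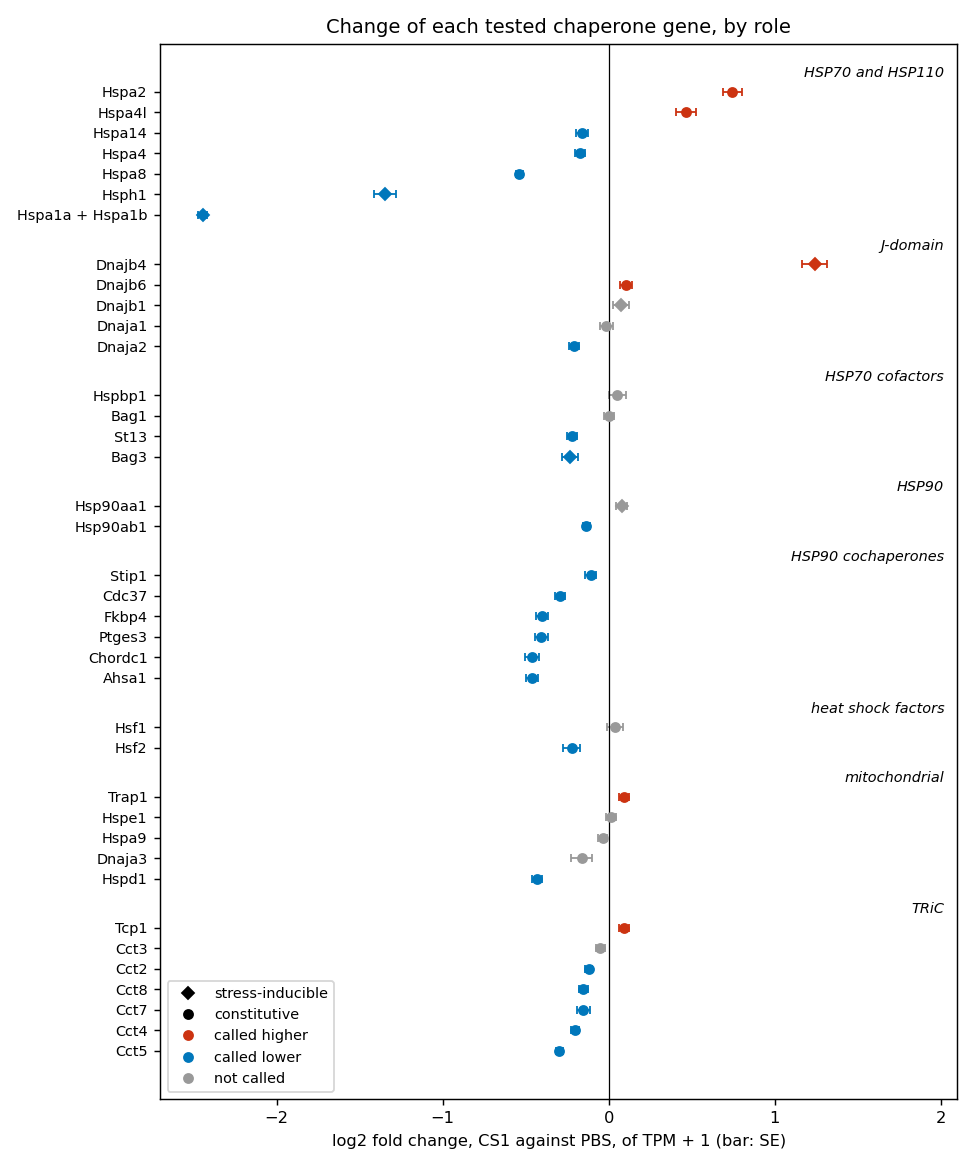
Log2 fold change (CS1 against PBS, of TPM + 1, x axis, bars are SE) of the 38 tested chaperone features, grouped by role; diamonds are stress-inducible and circles constitutive members, and colour gives the call. The 6 HSP90 cochaperones all lie left of 0, while the HSP70 and HSP110 genes run from -2.44 to 0.74.

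The inducible HSP70 genes Hspa1a and Hspa1b had the largest change of any member. Hspa1a was at 203 and 199 TPM in PBS and at 45.4 and 45.9 TPM in CS1, and Hspa1b at 148 and 161 TPM in PBS and at 19.73 and 18.01 TPM in CS1. Both groups were tight and far apart for each copy as listed. The copies lie on the minus strand of chromosome 17 (mm10), Hspa1b at chr17:34956436-34959238 and Hspa1a at chr17:34969190-34972156, with 9951 bases between them, and each is a single exon. Their coding sequences (1923 and 1926 bases without the stop codon) matched in 1915 of 1926 aligned positions, so reads inside them can hardly be assigned, and only the sum is read as a measurement. The sum was 351 and 360 TPM in PBS and 65.1 and 63.9 TPM in CS1, a fold change of 5.51 downward (log2 fold change -2.44 ± 0.03, SE; limma adjusted p = 4.34e-07). It was the 16th lowest of the 11865 tested features. Hspa1a made up 57.8% and 55.3% of the sum in PBS and 69.7% and 71.8% in CS1, so that Hspa1b as listed fell further (8.20-fold) than Hspa1a as listed (4.40-fold), and the sources used here do not say how reads shared by the copies were divided.

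The stretches upstream of the starts of these copies are shown because the summed copies fell and because the stretches are nearly the same sequence. The heat shock element, the binding motif of HSF1, is built of GAA units in alternating orientation with 2 free bases between neighbours. Capitals mark a match with 2 units, GAA and TTC in either order around 2 free bases, each of which reads the same on both strands. The sequences are from RefSeq on GRCm38.p6, the assembly of mm10, 5′ to 3′ on the gene's strand, from base -250 to base -1 before the start, at chr17:34972157-34972406 for Hspa1a and chr17:34959239-34959488 for Hspa1b.
Hspa1a: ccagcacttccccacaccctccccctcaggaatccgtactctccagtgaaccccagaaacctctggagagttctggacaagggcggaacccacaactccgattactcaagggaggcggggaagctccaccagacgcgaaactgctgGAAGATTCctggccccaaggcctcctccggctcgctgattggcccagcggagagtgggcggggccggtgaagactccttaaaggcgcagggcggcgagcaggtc
Hspa1b: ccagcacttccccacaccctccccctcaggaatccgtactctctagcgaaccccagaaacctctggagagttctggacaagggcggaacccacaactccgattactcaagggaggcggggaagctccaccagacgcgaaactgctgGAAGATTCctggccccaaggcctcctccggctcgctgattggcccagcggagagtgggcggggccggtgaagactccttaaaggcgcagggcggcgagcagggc
The stretches were identical in 247 of 250 bases, and both hold the same 2-unit match from -104 to -97.

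Heat shock elements were searched in the promoter windows of the other members as well, from 250 bases before to 50 bases after each start, and a gene with several starts was counted where any of its windows held a match. A perfect match of 3 units (GAA, NN, TTC, NN, GAA, or on the other strand TTC, NN, GAA, NN, TTC), which also holds the form with 2 units, was present for 5 of the 33 members with a window (15.2%), against 0.662% of 27025 genes. The 5 members were Hspd1, Hspe1, Hsph1, Dnajb6 and Chordc1, and Hspd1 and Hspe1 share 1 site. A match of at least 2 units was present for 15 members (45.5%), against 17.0% of all genes. Of the 5 genes with 3 units, 3 were called lower, 1 higher and 1 was not called. Among the 8 tested features with 2 units only, 6 were lower and 1 higher, and among the 18 members with neither, 9 were lower and 4 higher. Over all tested features, 31.6% were called lower and 35.3% higher. The classes are small, and a link between a match and a call was not tested. Hspa8, Hspa9, Hsp90aa1, Hsp90ab1, Hsf1, St13 and Cct4 are without a window. A match describes letters in a window, not a bound site. Only perfect units were searched, here and for the Hspa1 copies, so elements with imperfect units would be missed. The 5 stretches of 30 bases shown are 4 with at least 3 units and, for comparison, that of Dnajb4, the inducible gene that rose; Hsph1 is at chr5:149636287-149636316 (minus strand), Chordc1 at chr9:18292259-18292288, Hspe1 at chr1:55088053-55088082, Dnajb6 at chr5:29735843-29735872 (each plus strand) and Dnajb4 at chr3:152193841-152193870 (minus strand).
Hsph1: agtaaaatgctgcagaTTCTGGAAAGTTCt
Chordc1: accgGAACGTTCGGGAAAATTCCTGAAgca
Hspe1: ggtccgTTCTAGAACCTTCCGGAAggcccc
Dnajb6: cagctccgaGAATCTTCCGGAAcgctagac
Dnajb4: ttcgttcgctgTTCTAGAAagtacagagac
Hsph1 and Chordc1 fell, Dnajb6 and Dnajb4 rose and Hspe1 was not called, with the values given below.

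Among the other HSP70 genes, Hspa8, the constitutive cytosolic HSP70 and the most abundant member, fell. It was measured at 2304 and 2326 TPM in PBS and at 1579 and 1611 TPM in CS1, without overlap (log2 fold change -0.54 ± 0.02, adjusted p = 9.94e-06). Hspa8 alone made up 31.3% and 31.4% of the summed members in PBS and 26.6% and 27.1% in CS1, and without it the members still summed to 5051 and 5087 against 4361 and 4343 TPM. Hspa2, the HSP70 best known from the testis, rose from 16.2 and 17.4 TPM to 28.4 and 29.1 TPM (0.74 ± 0.06, adjusted p = 0.000138). Hspa14, an HSP70 relative bound to the ribosome, fell slightly, with a log2 fold change of -0.16. This call was lost without the filter on low values (adjusted p = 0.0572) and after quantile normalization (0.0506).

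The HSP110 genes, whose products release ADP from HSP70, went in different directions. Hsph1, the inducible HSP110, was at 22.2 and 22.5 TPM in PBS and at 8.38 and 7.99 TPM in CS1. The CS1 libraries were thus 2.73-fold lower (log2 fold change -1.35 ± 0.07, adjusted p = 2.53e-05), the next largest fall among the members after the Hspa1 copies. The constitutive Hspa4 fell from 96.4 and 99.5 TPM to 86.9 TPM in each CS1 library (-0.17, adjusted p = 0.00359). Hspa4l rose from 19.4 and 20.1 TPM to 28.9 and 26.5 TPM (0.46, adjusted p = 0.00113). No HSP110 gene overlapped between the groups, where 84.4% of all tested features did not overlap either.

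**Figure D3:**
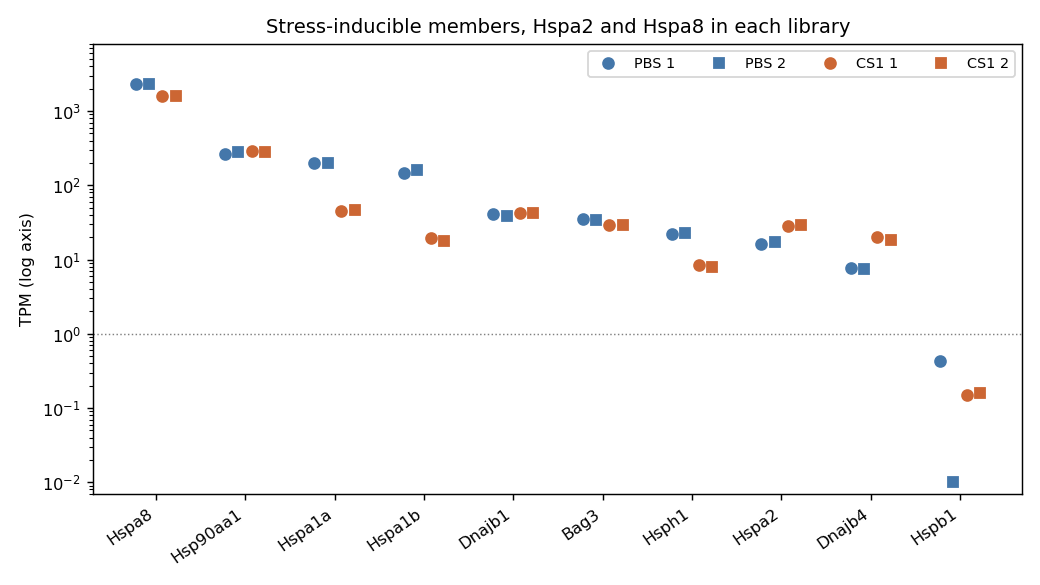
Level in TPM (log axis) of Hspa8, Hspa2 and the stress-inducible members in each library, with blue for PBS, orange for CS1, circles for replicate 1 and squares for replicate 2; the dotted line is at 1 TPM. Hspa1a, Hspa1b and Hsph1 lie lower in CS1, Dnajb4 and Hspa2 higher, and Hsp90aa1 and Dnajb1 at about the same level in all 4 libraries.

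J-domain proteins, the partners that bring clients to HSP70, included 2 of 5 genes called higher and 1 lower, where 35.3% and 31.6% of all tested features were. Dnajb4, an inducible cytosolic J-domain protein, rose from 7.65 and 7.49 TPM in PBS to 20.1 and 18.4 TPM in CS1, a 2.54-fold difference (log2 fold change 1.24 ± 0.07, adjusted p = 5.19e-05). Dnajb1, the main stress-induced partner of HSP70 in the cytosol, was measured at 41.4 and 38.5 TPM in PBS and 41.9 and 42.0 TPM in CS1 and was not called (0.07 ± 0.05, adjusted p = 0.228). The groups of Dnajb1 did not overlap, but the gap between them was smaller than the difference between the PBS libraries. Dnaja2 fell from 80.8 and 79.1 TPM to 68.7 and 69.4 TPM (-0.21, adjusted p = 0.00172). Dnaja1 had a log2 fold change of -0.01 and was not called. Dnajb6, known for holding back aggregation, went from 78.7 and 77.9 TPM to 86.4 and 82.2 TPM (0.10, adjusted p = 0.0406), a call lost without PBS replicate 1 (adjusted p = 0.102), PBS replicate 2 (0.138) or CS1 replicate 1 (0.179). It was also lost after median-ratio rescaling (0.097), with no filter (0.164) and with the variance trend off (0.106).

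Of the cofactors that act on the nucleotide cycle of HSP70, 2 of 4 were lower and 0 higher. Among all tested features, 31.6% were lower and 35.3% higher. Bag3, an inducible exchange factor linked to autophagy, fell from 35.3 and 33.7 TPM to 28.8 and 29.5 TPM (log2 fold change -0.23 ± 0.05, adjusted p = 0.00604). St13, which encodes the HSP70-interacting protein Hip, fell from 110 and 107 TPM to 93.7 and 92.3 TPM (-0.22, adjusted p = 0.00106). Bag1 was at 168 and 173 TPM in PBS and at 168 and 174 TPM in CS1, and Hspbp1 at 26.0 and 26.5 against 26.4 and 28.0 TPM; the groups overlapped for both, and neither was called.

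The constitutive HSP90 gene fell slightly, the inducible gene was not called, and their cochaperones all fell. Hsp90ab1, the constitutive cytosolic HSP90, went from 944 and 937 TPM to 850 and 863 TPM (log2 fold change -0.13, adjusted p = 0.00155). Hsp90aa1, the inducible form, was at 264 and 278 TPM in PBS and 290 and 283 TPM in CS1 (0.08 ± 0.03) and was not called at an adjusted p of 0.0741. It was called higher without PBS replicate 2 (adjusted p = 0.0329) and after quantile normalization (0.00433). All 6 cochaperones were called lower, with log2 fold changes from -0.46 to -0.11 and a median of -0.40, and their sum went from 740 and 739 TPM to 575 and 582 TPM. Groups overlapped for none of the 6. Of all tested features, 31.6% were called lower and 39.3% lay lower in CS1 without overlap.

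Ahsa1, the activator of HSP90's ATPase, fell from 215 and 203 TPM to 153 and 150 TPM (log2 fold change -0.46 ± 0.03, adjusted p = 0.000106). Chordc1, a CHORD-domain partner of HSP90, fell from 40.4 and 41.9 TPM to 29.5 and 29.8 TPM (-0.46 ± 0.04, adjusted p = 0.000267). Ptges3, which encodes the late-acting cochaperone p23, fell from 128 and 134 TPM to 101 and 96.1 TPM (-0.41). These CS1 libraries lay clear of the PBS libraries by more than the spread within either group. Fkbp4, an immunophilin of steroid receptor complexes, fell from 97.6 and 97.4 TPM to 71.4 and 75.6 TPM (-0.40). Cdc37, which brings kinases to HSP90, fell from 145 and 149 TPM to 117 and 123 TPM (-0.29). Stip1, the adaptor that hands clients from HSP70 to HSP90, went from 113 and 114 TPM to 103 and 108 TPM (-0.11, adjusted p = 0.0311), and its call was lost without PBS replicate 1 (adjusted p = 0.0939), PBS replicate 2 (0.108) or CS1 replicate 1 (0.131). It was lost as well without the filter (0.165), with the variance trend off (0.101) and after quantile normalization (0.767).

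Inducible genes were then set against their constitutive partners within each library, in TPM, which allows levels to be compared between genes. Hspa1a and Hspa1b made up 13.2% and 13.4% of the sum with Hspa8 in PBS and 3.96% and 3.81% in CS1. Hsph1 made up 16.1% and 15.8% of the 3 HSP110 genes in PBS and 6.75% and 6.58% in CS1. For HSP90 the order was the opposite: Hsp90aa1 made up 21.9% and 22.9% of the pair in PBS and 25.4% and 24.7% in CS1. These shares do not depend on how libraries are scaled to each other by a constant. The groups did not overlap in any of the 4 comparisons made, which include the mitochondrial ratio below, and each gave a two-sided exact permutation p of 0.333, the smallest that 2 libraries against 2 allow, and 0.333 after adjustment over the 4. Taken singly, 84.4% of all tested features did not overlap between the groups either.

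**Figure D4:**
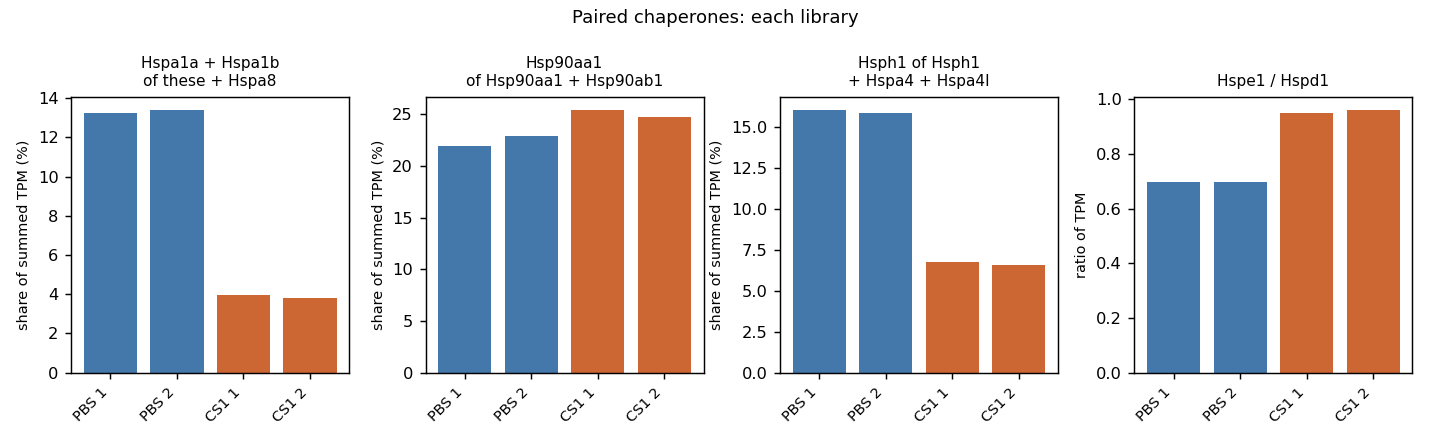
Share of the inducible form in the summed TPM of its partners (first 3 panels, percent) and the ratio of Hspe1 to Hspd1 (last panel), as 1 bar per library, blue for PBS and orange for CS1. The share of the Hspa1 copies falls from 13.2% and 13.4% to 3.96% and 3.81% and that of Hsph1 from 16.1% and 15.8% to 6.75% and 6.58%, while the share of Hsp90aa1 is slightly higher in CS1.

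The small heat shock protein gene Hspb1, which encodes a holdase that keeps unfolded proteins soluble, was close to absent, with 0.43 and 0.01 TPM in PBS and 0.15 and 0.16 TPM in CS1, and it was not tested. The master regulator Hsf1 was at 38.0 and 40.5 TPM in PBS and at 40.4 and 40.2 TPM in CS1 and was not called (log2 fold change 0.04 ± 0.05, adjusted p = 0.498). Hsf2, its relative with a role in development, fell from 24.8 and 24.9 TPM to 21.6 and 20.7 TPM (-0.22, adjusted p = 0.0105), a call lost without CS1 replicate 2 (adjusted p = 0.051).

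In mitochondria, 1 of the 5 chaperone genes was lower, 1 higher and 3 were not called. Of all tested features, 31.6% were lower and 35.3% higher. Hspd1 encodes the folding chamber HSP60 and Hspe1 its lid HSP10; the genes lie head to head on chromosome 1 (chr1:55077835-55088243, minus strand, and chr1:55088132-55091307, plus strand) and share 112 bases at their starts. The match they share lies upstream of the RefSeq start of Hspe1 and in the window of 1 of the RefSeq starts of Hspd1; from the start of Hspd1 given here it lies inside the gene. Hspd1 fell from 136 and 138 TPM to 103 and 99.2 TPM (log2 fold change -0.43 ± 0.03, adjusted p = 9.33e-05), whereas Hspe1 was at 94.8 and 96.4 TPM in PBS and 97.8 and 95.4 TPM in CS1 (0.01 ± 0.03, adjusted p = 0.676). The ratio of Hspe1 to Hspd1 was 0.698 and 0.699 in PBS and 0.948 and 0.961 in CS1. Hspa9, the mitochondrial HSP70, was at 110 and 113 TPM in PBS and 108 and 110 TPM in CS1 and was not called (-0.04). Dnaja3, its J-domain partner, was at 30.8 and 27.7 against 25.8 and 26.3 TPM (-0.16, adjusted p = 0.0649), and was called lower without PBS replicate 2 (adjusted p = 0.026) and after median-ratio rescaling (0.0395). Trap1, the mitochondrial HSP90, went from 64.6 and 63.4 to 68.9 and 67.6 TPM (0.09, adjusted p = 0.0485). Its call was lost without any single library (adjusted p = 0.086 to 0.176), and also without the filter (0.0774), with the variance trend off (0.104), with the replicate block (0.069) and after median-ratio rescaling (0.147).

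TRiC is a double ring of related subunits, and 7 of its genes are members here. Of these, 5 were lower, 1 higher and 1 was not called, where 31.6% of all tested features were lower and 35.3% higher. Cct5 fell from 320 and 315 TPM to 258 TPM in each CS1 library (log2 fold change -0.30 ± 0.02, adjusted p = 0.000106) and Cct4 from 207 and 209 TPM to 180 and 182 TPM (-0.20). Cct8, Cct7 and Cct2 fell by 0.15, 0.15 and 0.12 on the log2 scale. The call of Cct7 was lost without PBS replicate 2 (adjusted p = 0.0697), with no filter (0.151), with the variance trend off (0.0631) and after quantile normalization (0.415), where that of Cct2 was lost as well (0.421). Cct3 was at 109 and 111 TPM in PBS and 107 and 105 TPM in CS1 and was not called (-0.05, adjusted p = 0.171), though it was called lower after median-ratio rescaling (0.0362). Tcp1, the founding subunit, went the other way, from 181 and 188 TPM to 198 and 194 TPM (0.09, adjusted p = 0.0303). That call was lost without PBS replicate 1 (adjusted p = 0.143), CS1 replicate 1 (0.123) or CS1 replicate 2 (0.0539), with no filter (0.151), with the variance trend off (0.124), with the replicate block (0.0517) and after median-ratio rescaling (0.0978).

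Subunit levels differed by 2.83 to 2.95 times between the highest and the lowest of the 7 genes in PBS and by 2.49 to 2.50 times in CS1. In PBS the order was Cct5, Cct2, Cct4, Tcp1, Cct8, Cct7 and Cct3. In CS1, Cct2 stood above Cct5 and Tcp1 above Cct4, with the rest unchanged in order, and each of these changes in order held in both libraries of the group. Tcp1 made up 12.7% and 13.1% of the summed 7 genes in PBS and 15.2% and 15.1% in CS1. Exons of Tcp1 share 571 bases with Acat3 and 141 with Mrpl18 on the opposite strand, and the strand setting of the counting is not stated. Such overlaps with another tested feature concern 9 of the 40 members, Hspd1, Hspe1, Trap1, Dnaja1, Dnaja3, Dnajb6, Tcp1, Cct7 and Cct8, whose values are uncertain to that extent.

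**Figure D5:**
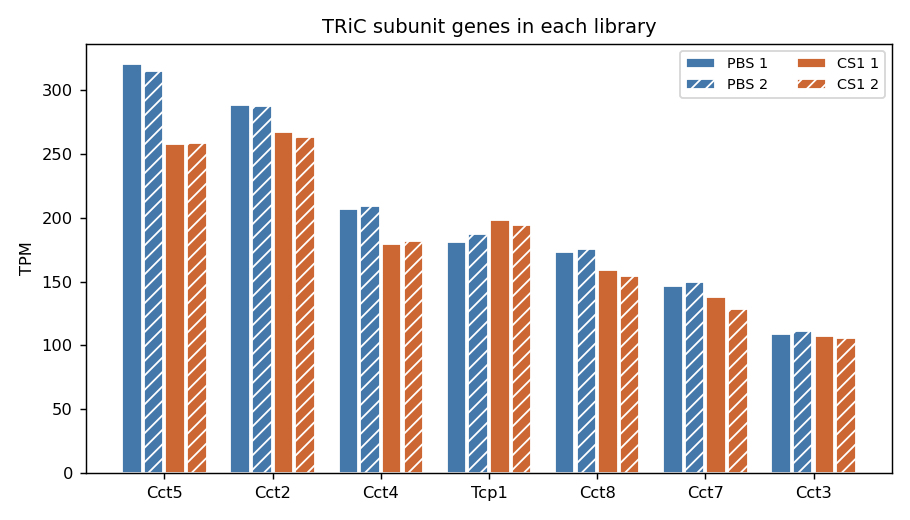
Level in TPM of the 7 TRiC subunit genes in each library, ordered by their mean in PBS, blue for PBS and orange for CS1, with hatching for replicate 2. Cct5 drops from 320 and 315 to 258 TPM, below Cct2, and Tcp1 stands above Cct4 in the CS1 libraries only.

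Further genes of the chaperone network were taken from 6 lists of 107 genes in all. Of 94 tested genes 32 were called higher (34.0%, beside 35.3% of all tested features) and 14 lower (14.9%, beside 31.6%). Their share of higher calls was thus near the background and their share of lower calls below it. The median log2 fold change was 0.07, beside 0.04 over all tested features; without PBS replicate 1 the lower calls were 9. Prefoldin delivers new actin and tubulin to TRiC; of 11 tested prefoldin genes and TRiC helpers, 3 were higher and 2 lower. Pfdn5 rose from 315 and 317 TPM to 411 and 408 TPM (log2 fold change 0.37, adjusted p = 3.63e-05) and Pfdn1 by a log2 fold change of 0.49. The TRiC subunit gene Cct6a fell by 0.11, and Mkks, a TRiC relative, by 0.31. Of these 2 lower calls 0 were left without PBS replicate 1 and 1 without any of the other 3 libraries.

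Among 27 other tested J-domain genes, 9 were higher (33.3%, near the 35.3% of all tested features) and 4 lower (14.8%, beside 31.6%). Dnajb13, known from sperm and cilia, rose from 7.78 and 7.52 TPM to 19.8 and 20.4 TPM (log2 fold change 1.29, adjusted p = 3.15e-05), and Dnajc12 by 0.98, while Dnajc14 and Dnajb14 fell by 0.49 and 0.20. Of 26 further HSP70 and HSP90 cochaperones, 7 were higher (26.9%) and 5 lower (19.2%), both shares below the background, and the lower calls were 3 without PBS replicate 1 or CS1 replicate 2. Unc45a, the myosin cochaperone, rose by 0.60 and Ahsa2, a relative of Ahsa1, by 0.41, and Cdc37l1, a relative of Cdc37, fell by 0.36.

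Other HSP70 and small heat shock genes were mostly too low to test, with 8 of 13 under the filter. Of the 5 tested, 3 were higher and 0 lower, beside 35.3% and 31.6% of all tested features. Hspb6 rose from 12.8 and 10.2 TPM to 29.3 and 33.5 TPM (log2 fold change 1.38, adjusted p = 0.000189) and Hspb11 by 1.12. Hspa1l, an HSP70 gene known from the testis that starts 546 bases from Hspa1a on the opposite strand, rose from 2.45 and 2.42 TPM to 5.12 and 5.09 TPM (0.83, adjusted p = 0.000841). Hspa1l is also in the list of genes taken here as raised by HSF1, which was not tested for it. Hspa1a as listed and Hspa1l thus moved in opposite directions at neighbouring positions.

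In the list of mitochondrial import and quality control, 8 of 19 genes were higher (42.1%, beside 35.3% of all tested features) and 2 lower (10.5%, beside 31.6%). The protease gene Lonp1 rose from 57.9 and 57.1 TPM to 78.9 and 81.8 TPM (log2 fold change 0.47) and Timm44, which tethers mitochondrial HSP70 to the import pore, by 0.45, whereas the protease genes Yme1l1 and Spg7 fell by 0.23 and 0.21. Among 10 other tested genes taken here as raised by HSF1, 3 were higher, with Hspa1l among them, and 2 lower. Over all tested features, 35.3% were higher and 31.6% lower. The haem oxygenase gene Hmox1, which oxidants and haem also induce, fell from 275 and 276 TPM to 115 and 114 TPM (log2 fold change -1.26, adjusted p = 2.38e-06). Cacybp fell by 0.17. These 2 lower calls were 1 without PBS replicate 1, PBS replicate 2 or CS1 replicate 2. Dnaja4, Hspb8 and Cryab, inducible chaperone genes, were below 1 TPM in every library and were not tested.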

How the data were processed

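Expression was measured in 4 libraries, 2 from PBS and 2 from CS1. The deposited values were taken as TPM made by the authors: the header does not state the unit, and TPM was inferred because RSEM is named and the values have decimals and sum to 977973 to 986345 per library. STAR, RSEM and mm10 are named per the submitters' processing notes, without versions; the sources used here name neither annotation nor strand setting, and without depth there is no counting interval. The value 0.01 is the lowest listed, and 7674 features have it in all 4 libraries.

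Hspa1a and Hspa1b were summed in TPM. After the log2(TPM + 1) transform, a feature was kept where 2 libraries or more reached 1 TPM, and limma 3.58.1 under R 4.3.3 fitted the difference CS1 minus PBS, two-sided, with a variance trend. P-values were adjusted by Benjamini-Hochberg over the 11865 features kept, and a feature was called where the adjusted p was below 0.05. Adjusted p-values in the text come from limma, in this fit or in the alternative named beside them. Fold changes on this scale understate the change of low genes. The fit was tested on simulated data. Shares and the ratio within libraries were compared by an exact permutation test (SciPy 1.17.1). Coordinates and exon overlaps come from GENCODE M21 (GRCm38, that is mm10), to which 40 of 40 members matched by symbol; promoter sequences are from RefSeq on GRCm38.p6, for 33 members.

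The members and lists were chosen with earlier results of these data known. Named in full were the stress-inducible members and every called member that changed by at least 0.5; of each further list, up to 2 called genes with the largest rise and up to 2 with the largest fall, of which some are not reported here. Other members are described by role. Alternatives changed the pseudocount, the filter, the scaling, the variance trend and the copies, added the replicate number as a block, and left out each library. Leaving out each library for the paralog shares, and the counts of the further lists under each alternative, were added after seeing the data. Where a library is left out, the lone library of its group is assumed to vary like the others.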

Additional observations from a re-analysis of the deposited data

How the results depend on the processing

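Over 12 alternative fits, 22 of the 38 tested members kept their direction and their side of the threshold each time (11 fits for the summed Hspa1 copies), among them the summed Hspa1 copies (log2 fold change -2.48 to -2.32), Hsph1 (-1.46 to -1.32), Hspa8 (-0.70 to -0.52) and Dnajb4 (1.12 to 1.33). Of 455 values, 402 kept both, 35 lost the call, 7 gained it and 11 changed sign. Members called higher numbered 6 in the fit reported, 3 after median-ratio rescaling, with no filter on low values or with the variance trend off, 9 after quantile normalization (where 18 were lower) and 3 to 5 without a library. The median of the stress-inducible members (-0.08) was -0.23 with the copies kept apart or with the wide list, -0.11 after median-ratio rescaling, -0.0573 with no filter and -0.1228 to -0.0787 without a library. That of the constitutive members (-0.15) was -0.19 after median-ratio rescaling, -0.0693 after quantile normalization and -0.1509 to -0.1405 without a library. All sign changes concerned members not called in the fit reported: after median-ratio rescaling Hspe1 (-0.0182) and Bag1 (-0.0299), and after quantile normalization Hspa9 (0.0653), Dnaja1 (0.0443) and Cct3 (0.0426). Without a library, Hspe1 ran from -0.0024 to 0.0322, Dnaja1 from -0.0366 to 0.0098, Bag1 from -0.0185 to 0.0251 and Hsf1 from -0.0068 to 0.0814. After quantile normalization Hspe1 (0.10, adjusted p = 0.0228) and Bag1 (0.10, adjusted p = 0.0331) were called higher in limma's test. The cause was not tested. The median of all tested features was 0.04 as deposited, 0.01 after median-ratio rescaling and -0.01 after quantile normalization. The replicate numbers are not said to pair animals or days, and same-numbered libraries deviated together with r = 0.0219 across features. With the replicate block 4 members were higher and 22 lower, and the calls of Trap1 and Tcp1 were lost.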
